A study of Mus musculus with 6 samples.

Results

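The genes described are 31 genes taken as markers of the exocrine pancreas. They encode digestive enzymes, proteins that package or restrain them, and transcription factors that keep acinar cells in their state. Whether each is particular to acinar cells was not tested. They were chosen by symbol, and array probes were matched to them by RefSeq accession. Of the 31, 27 had a probe, and 25 of those 27 were tested among 25790 genes in all. No probe matched Amy2b, Prss3, Try10 or Ctrc, which are not analysed here. The probes for the elastase gene Cela2a and the lipase-related gene Pnliprp2 were not well above background on any of the 6 arrays.

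Pancreatic islets were taken from male C57Bl/6N mice, dispersed into cells and cultured for 72 h. On 3 control arrays the cells had been left without exosomes, and on 3 exoNOD arrays they had been given exosomes, small vesicles shed by cells, at 50 µg/ml. NOD mice, which are prone to autoimmune diabetes, were the source of the CD4+CD25- T lymphocytes whose culture media yielded the vesicles. The 3 experiments each used their own islet and exosome preparations. No age, number of animals or purity of the islets is given in the labels, and islet cells were not sorted, so acinar RNA in these samples can come from exocrine cells carried over with the islets.

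Acinar cells make up most of the pancreas and surround the islets. They store inactive enzyme precursors in zymogen granules and release them towards the gut, where trypsin activates the others. Their genes are switched on by the PTF1 complex, in which Ptf1a pairs with the Notch-pathway relative Rbpjl, together with Nr5a2 and Bhlha15 (Mist1). Acinar transcripts are a common trace in islet RNA, and isolation of islets removes exocrine tissue to an extent that varies from one preparation to the next.

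Levels are log2 signals of the gene's brightest probe relative to the 75th percentile of the array. A level of 0 is the one that 25% of spots exceed. Single levels are compared across arrays for the same probe and not between genes. The means and sums over a list, given further on, do combine the signals of different probes. Changes are exoNOD minus control on that log2 scale, with n = 3 arrays per group. The threshold is an adjusted p of 0.05 in limma, a linear model fitted to all genes, with Benjamini-Hochberg adjustment over all genes tested. In a bulk sample, fewer cells of a type and less RNA per cell cannot be told apart. Precision is limited by how many arrays there are.

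The arrays were alike in the share of spots above background and in saturation. Between 78.1% and 81.8% of the 43020 spots for transcripts were well above background on each array, and 0 spots were saturated. Slides were inferred from the scan times in the file headers: arrays that share a scan time are called 1 slide here. Slide 1 then held all 3 controls and exoNOD replicate 1. Slide 2 held exoNOD replicates 2 and 3 and no control. The median signal was 140 and 129 on exoNOD replicates 2 and 3, against 112 to 121 on the slide 1 arrays. The 75th percentile signal ran from 812 to 890 over the arrays. The insulin gene Ins2 marked the samples as islet cells, its level being 8.70 ± 0.05 on control arrays and 8.63 ± 0.02 on exoNOD arrays (SD, n = 3 each).

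Several enzymes, most of all the trypsinogens Prss2, Try4 and Try5, followed the replicate number of the arrays. Replicate 2 carried the most signal of these 3 genes in both groups, while replicate 3 carried the least signal of the amylase gene Amy1 and the elastase gene Cela1 in both. Between exoNOD and control, 0 of the 25 members passed the threshold, against 0.105% of all genes. With the replicate number as a block 1 of 25 members rose, the procarboxypeptidase gene Cpa1, against 6.93% of all genes. In that fit 1 member fell, Bhlha15, against 1.83% of all genes.

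**Figure D1:**
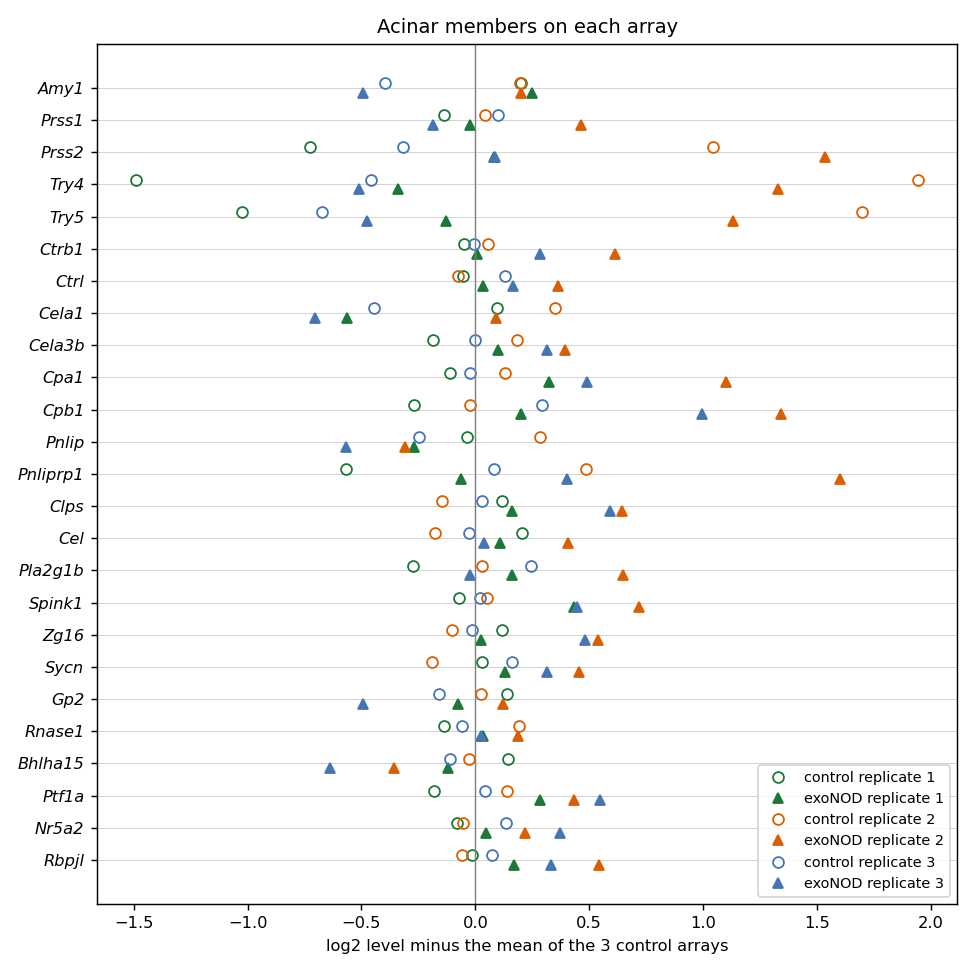
Level of each of the 25 tested acinar members on every array, as the log2 level minus the mean of the 3 control arrays (horizontal axis); open circles are control, filled triangles exoNOD, and colours mark replicate numbers. The trypsinogens Prss2, Try4 and Try5 spread widest, with replicate 2 of both groups to the right.

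Trypsinogens are the precursors of trypsin, the protease that starts the activation of all other pancreatic zymogens. Sequence upstream of their genes is shown because the probes of Prss2 and Try4 and the dimmer of the Prss1 probes were highest on replicate 2 in both groups, while the brighter Prss1 probe was not. These are the 125 bases before the annotated start, from the RefSeq promoter set on GRCm38.p6, 5′ to 3′, all on the plus strand: Prss1 at chr6:41458805-41458929, Try4 at chr6:41302147-41302271 and Prss2 at chr6:41521651-41521775. Capitals mark 2 motifs on either strand, TGGGAA, the site read by RBPJ-type proteins such as Rbpjl, and CACCTG, an E-box of the kind bound by Ptf1a (CAGGTG where it lies on the other strand); the motifs share no overlapping bases.
Prss1: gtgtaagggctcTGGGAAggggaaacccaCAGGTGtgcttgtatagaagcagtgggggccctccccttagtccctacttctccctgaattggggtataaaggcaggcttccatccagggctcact
Try4: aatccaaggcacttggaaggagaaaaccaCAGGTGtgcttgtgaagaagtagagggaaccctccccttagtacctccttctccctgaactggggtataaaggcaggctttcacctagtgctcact
Prss2: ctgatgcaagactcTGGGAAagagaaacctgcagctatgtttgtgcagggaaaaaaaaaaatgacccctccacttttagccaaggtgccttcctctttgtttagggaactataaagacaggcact

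Over the 250 bases before the start, Prss1 and Try4 had 71.2% identical bases in a global alignment, against 56.8% for Prss1 and Prss2. Pairs of a trypsinogen shown here with the unrelated Cpa1 or Bhlha15 had between 46.8% and 54.0%, so the value for Prss1 and Prss2 is little above that of unrelated stretches. Of the 31 members, 25 had a RefSeq promoter window (27 windows). TGGGAA lay in 15 of the 27, against 21.6% of 32851 windows of all genes, and CACCTG also in 15, against 17.2%. Both motifs lay in 6 windows, those of Cel, Cela2a, Ctrl, Prss1, Prss2 and Rbpjl, against 3.91% of all windows. A match describes the letters and does not show that a factor binds there.

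Try4 had levels of −5.96, −2.53 and −4.93 in control replicates 1, 2 and 3, and −4.81, −3.14 and −4.98 in exoNOD replicates 1, 2 and 3. Replicate 2 stood above the other 2 in both groups, 7.56-fold in control and 3.37-fold in exoNOD cells. Try5 had −4.79, −2.07 and −4.45 in control and −3.90, −2.64 and −4.25 in exoNOD cells. Replicate 2 of Try5 lay above the others 5.84-fold in control and 2.70-fold in exoNOD cells. Prss2 had −6.03, −4.27 and −5.63 in control and −5.23, −3.77 and −5.22 in exoNOD cells, with replicate 2 higher 2.96-fold and 2.74-fold. The groups overlapped for all of these genes, since control replicate 2 lay above exoNOD replicates 1 and 3.

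A limma F test of the replicate number, in the fit with the treatment and the replicate block, was added after these values were seen. It called 5 of 25 members, against 6.7% of all genes: Try5 (adjusted p = 0.00547), Try4 (0.00592), Prss2 (0.00884), Cela1 (0.0403) and Amy1 (0.0425). The lipase-related gene Pnliprp1 had 0.0732. Without pair 2 the test called 0 members, against 3.24% of all genes. It called 5 members without pair 1 (9.73% of all genes) and 4 without pair 3 (4.62%). On quantile-normalized values and on the authors' values it called 3 members each, against 5.25% and 5.21% of all genes. Among the 25 members 10 were highest on replicate 2 in both groups, as were 17.0% of all genes.

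Treatment differences of the trypsinogens were small beside that spread. The change of Try4 was 0.16 ± 0.81 (SE; limma adjusted p = 0.933), that of Try5 0.18 ± 0.68 (0.913) and that of Prss2 0.57 ± 0.52 (0.594). Within pairs of equal number, Prss2 differed by 0.81, 0.49 and 0.40, higher in exoNOD cells in 3 of 3 pairs (adjusted p = 0.111 with the replicate block). Try4 differed by 1.15, −0.62 and −0.05 and Try5 by 0.89, −0.57 and 0.20, so neither kept a direction across pairs.

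Prss1, read by its brightest probe, gave another pattern. Its levels were −3.94, −3.76 and −3.70 in control and −3.82, −3.34 and −3.99 in exoNOD cells (change 0.09 ± 0.20, adjusted p = 0.848). Its other probe had −8.41, −5.61 and −7.93 in control and −7.37, −5.74 and −7.49 in exoNOD cells, and was well above background on 2 arrays, both replicate 2. So the probes of Prss1 disagreed in control cells, where the brighter was nearly level. In exoNOD cells the brighter was highest on replicate 2, 1.48-fold above the other 2. The dimmer followed replicate 2 in both groups, like Prss2, Try4 and Try5. Trypsinogen genes are close paralogs, and whether a probe also binds transcripts of a relative was not tested.

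**Figure D2:**
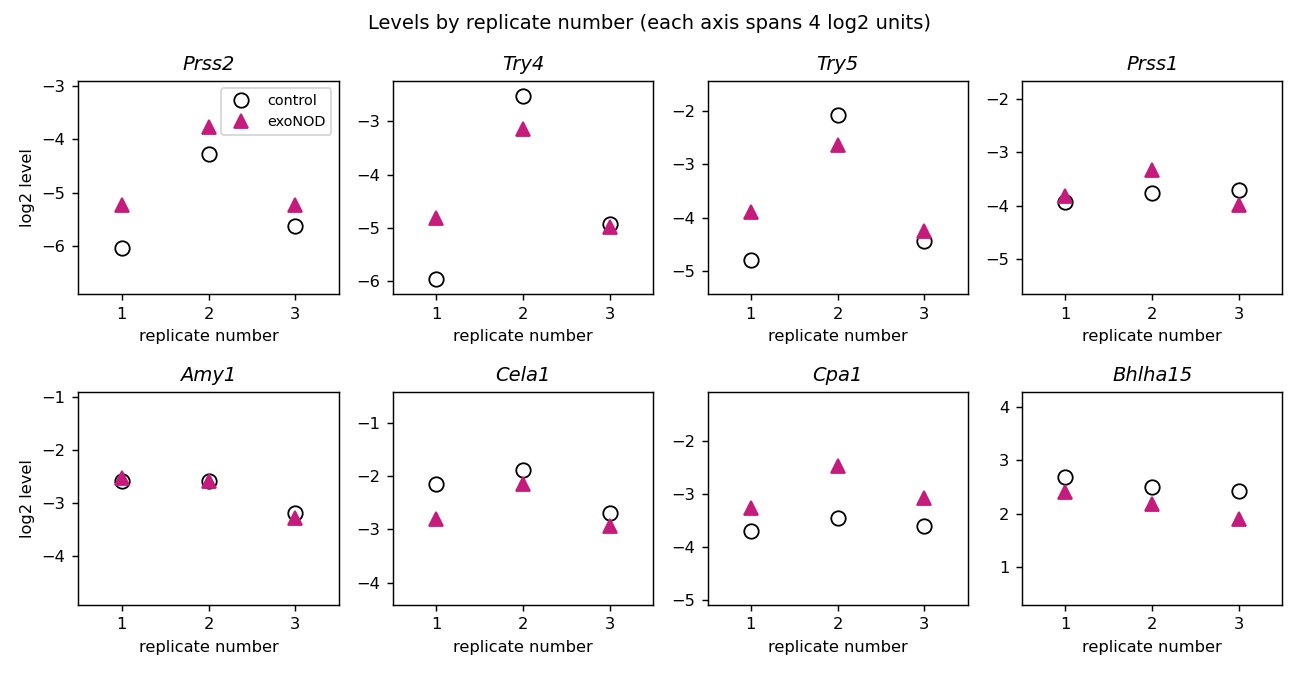
Log2 level (vertical axis, 4 units in every panel) against replicate number for 8 members; open circles are control and triangles exoNOD arrays. Prss2, Try4 and Try5 peak at replicate 2 in both groups, and Amy1 and Cela1 are lowest at replicate 3. Cpa1, Bhlha15, Prss2 and Cela1 each differ in the same direction in every pair.

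Amylase, which digests starch, and elastase 1 had their lowest level in replicate 3. Amy1 had −2.58, −2.59 and −3.18 in control and −2.53, −2.59 and −3.28 in exoNOD cells. Replicate 3 lay below the other 2 in both groups, the others having 1.51-fold its signal in control and 1.65-fold in exoNOD cells, and the treatment change was −0.01 ± 0.25 (adjusted p = 0.98). Cela1 had −2.15, −1.89 and −2.69 in control and −2.81, −2.15 and −2.94 in exoNOD cells. It was lower in exoNOD cells in 3 of 3 pairs, by 0.66, 0.26 and 0.26, a change of −0.39 ± 0.26 that did not pass (adjusted p = 0.462, 0.0953 with the replicate block). The related elastase gene Cela3b, with levels between −5.47 and −4.89, was higher in exoNOD cells in 3 of 3 pairs, with a change of 0.27 ± 0.20 (adjusted p = 0.498).

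Both procarboxypeptidases, precursors of enzymes that trim amino acids from the ends of peptides, were higher in exoNOD cells in 3 of 3 pairs. Cpa1 had −3.69, −3.45 and −3.60 in control and −3.26, −2.48 and −3.08 in exoNOD cells, so every exoNOD array lay above every control array. The control mean was −3.58 ± 0.12 and the exoNOD mean −2.94 ± 0.41 (SD, n = 3 each), which is 1.56-fold higher (log2 change 0.64 ± 0.21 SE, adjusted p = 0.233). It rose with the replicate block (0.64 ± 0.16, adjusted p = 0.0364). It did not pass with the block after quantile normalization, in the authors' values or without pair 2. Without exoNOD replicate 2 the change of Cpa1 was 0.41, and on slide 1, the only slide with both groups, it was 0.32.

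Cpb1 had −5.68, −5.44 and −5.12 in control and −5.21, −4.07 and −4.42 in exoNOD cells, and exoNOD replicate 1 overlapped the controls, with a difference of 0.20 on slide 1. Its change was 0.85 ± 0.31, 1.80-fold (adjusted p = 0.248, 0.0501 with the replicate block). Without exoNOD replicate 1 it passed, with a change of 1.17 (limma adjusted p = 0.0426), as did 1273 of 25782 genes. The exoNOD arrays left then all lie on slide 2 and the controls on slide 1, so slide and treatment cannot be told apart in that fit.

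Cpa1 is shown by its upstream stretch as the member that rose with the block, beside that of Bhlha15, the member that fell. Both are the 125 bases before the start, plus strand, GRCm38.p6, at chr6:30639093-30639217 and chr5:144190161-144190285, with the same 2 motifs in capitals.
Cpa1: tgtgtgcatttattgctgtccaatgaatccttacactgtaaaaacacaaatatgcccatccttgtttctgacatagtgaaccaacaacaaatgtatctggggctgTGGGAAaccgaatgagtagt
Bhlha15: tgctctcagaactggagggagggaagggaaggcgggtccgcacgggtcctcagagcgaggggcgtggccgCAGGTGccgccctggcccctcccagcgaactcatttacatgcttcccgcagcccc
The stretch of Cpa1 held TGGGAA and no CACCTG, and that of Bhlha15 held CACCTG and no TGGGAA.

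The transcription factors differed in direction. Bhlha15, a basic helix-loop-helix factor that builds the secretory apparatus of acinar and some other secretory cells, had levels of 2.68, 2.51 and 2.42 in control and 2.41, 2.18 and 1.90 in exoNOD cells. Every exoNOD array lay below every control array, though exoNOD replicate 1 lay below the lowest control by little. Its mean was 2.54 ± 0.13 in control and 2.16 ± 0.26 in exoNOD cells, 1.30-fold more in control (change −0.37 ± 0.14, adjusted p = 0.26). With the replicate block it fell (−0.37 ± 0.08, adjusted p = 0.0266), and within pairs it differed by −0.26, −0.33 and −0.53. It did not pass with the block after quantile normalization, in the authors' values, or without pair 2 or pair 3. The change of Bhlha15 was −0.24 without exoNOD replicate 3 and −0.12 on slide 1.

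The other factors were higher in exoNOD cells in 3 of 3 pairs and none passed in either fit. Ptf1a, the DNA-binding subunit particular to the PTF1 complex, had −6.55, −6.23 and −6.33 in control and −6.09, −5.94 and −5.83 in exoNOD cells, with no overlap (change 0.42 ± 0.22, adjusted p = 0.356). Its probe was well above background on 1 control array and all 3 exoNOD arrays, so it entered the test through the exoNOD group. Rbpjl, its partner, had −3.81, −3.86 and −3.73 in control and −3.63, −3.26 and −3.47 in exoNOD cells, also with no overlap (0.35 ± 0.16, adjusted p = 0.31). The nuclear receptor gene Nr5a2 had −2.96, −2.93 and −2.74 against −2.83, −2.66 and −2.51, where the groups overlapped (0.21 ± 0.15, adjusted p = 0.478).

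Lipid-digesting enzymes split. Clps, the colipase that anchors lipase to fat droplets, had −0.35, −0.62 and −0.44 in control and −0.31, 0.17 and 0.12 in exoNOD cells, with no overlap (change 0.47 ± 0.15, 1.38-fold, adjusted p = 0.231, 0.0546 with the replicate block). It passed without exoNOD replicate 1 (0.62, limma adjusted p = 0.0389), as did 1273 of 25782 genes. In that fit slide and treatment cannot be told apart. In pair 1 alone Clps differed by 0.05, against 0.79 and 0.56 in the other pairs.

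Pnlip, the pancreatic lipase that colipase serves, differed in the other direction. It had −3.30, −2.98 and −3.51 in control and −3.53, −3.57 and −3.83 in exoNOD cells, again with no overlap (−0.38 ± 0.18, 1.30-fold more in control, adjusted p = 0.328). With normexp background correction the sign of Pnlip turned (0.47), in a setting where the median change of all genes was 0.35. Pnliprp1, a lipase relative, had −6.91, −5.85 and −6.26 against −6.40, −4.73 and −5.93, and was highest on replicate 2 in both groups (0.65 ± 0.44, adjusted p = 0.474). Its probe was above background on 2 of 3 control and 3 of 3 exoNOD arrays. Cel, which splits cholesterol esters, and the phospholipase gene Pla2g1b changed by 0.18 ± 0.14 and 0.26 ± 0.24 without passing (adjusted p = 0.526 and 0.595).

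The chymotrypsinogens Ctrb1 and Ctrl and the granule proteins Zg16 and Sycn had positive differences that did not pass. Ctrb1 had −1.21, −1.10 and −1.16 in control and −1.15, −0.54 and −0.87 in exoNOD cells (0.30 ± 0.16, adjusted p = 0.368), and Ctrl differed by 0.19 ± 0.14 (0.495). Zg16, a lectin of the granule membrane, had −3.92, −4.14 and −4.05 in control and −4.01, −3.50 and −3.56 in exoNOD cells (0.35 ± 0.19, adjusted p = 0.372). Sycn, which encodes the granule protein syncollin, differed by 0.30 ± 0.15 (0.335). In each of these 4 genes exoNOD replicate 1 lay within the range of the controls.

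Gp2, the main glycoprotein of the granule membrane, differed by −0.15 ± 0.19 (adjusted p = 0.71) by its brightest probe. Its other probe, above background on all 6 arrays, gave 0.30 ± 0.35 (0.684). That probe had −5.96, −4.82 and −5.75 in control and −5.53, −4.70 and −5.41 in exoNOD cells, so it followed replicate 2, which the brighter probe did not. Rnase1, the pancreatic ribonuclease, differed by 0.08 ± 0.15 (0.81) and took the opposite sign after quantile normalization (−0.08).

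Spink1, which encodes the inhibitor that guards acinar cells against trypsin activated too early, was higher in exoNOD cells in 3 of 3 pairs. Its levels were −5.55, −5.42 and −5.45 in control and −5.04, −4.75 and −5.03 in exoNOD cells, a gap with no overlap. The means were −5.47 ± 0.06 and −4.94 ± 0.16, 1.45-fold higher in exoNOD cells (0.53 ± 0.19, adjusted p = 0.242, 0.133 with the replicate block). After quantile normalization the change of Spink1 was 0.29. On slide 1, the gap between exoNOD replicate 1 and the control mean was 0.44, the largest positive such gap among the 25 members.

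**Figure D3:**
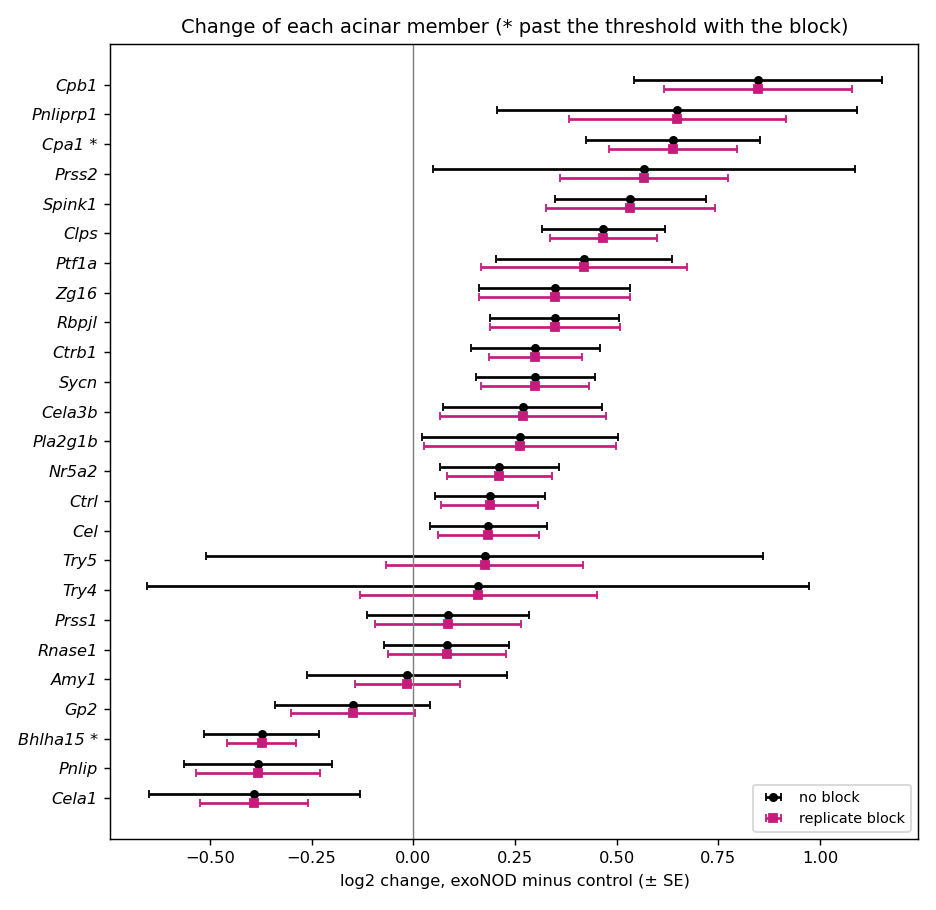
Log2 change of the 25 members, exoNOD minus control (horizontal axis), with the standard error of limma without a block (circles) and with the replicate block (squares); asterisks mark members past the threshold with the block. Cpa1 and Bhlha15 carry the asterisks, and the error bars of Try4 and Try5 shrink most when the block is added.

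Of the 25 members, 20 were higher and 5 lower in exoNOD cells, while of all 25790 genes tested 14287 were higher and 11503 lower. The median change was 0.26 over the members and 0.04 over all genes tested. Pnliprp1 and Ptf1a entered through the exoNOD group, where they are higher. Over the 23 members above background on all 6 arrays, 18 were higher and 5 lower, with a median of 0.21. The median over the 25 was 0.099 without exoNOD replicate 2 and 0.12 after quantile normalization, where that of all genes was −0.02. Scaling by the array median in place of the 75th percentile moved the medians of members and all genes to 0.12 and −0.11. Changes ran from −0.39 for Cela1 to 0.85 for Cpb1, and the lowest adjusted p was 0.231. With the replicate block 1 member rose, against 6.93% of all genes, and 1 fell, against 1.83%. The median standard error was 0.19 without and 0.16 with the block, and the largest fell from 0.81 to 0.29. Every exoNOD array lay above every control array for 5 members (Cpa1, Clps, Spink1, Ptf1a and Rbpjl), against 14.6% of all genes, and below for 2 (Pnlip and Bhlha15), against 7.78%. Without Ptf1a, which was above background on 1 control array, the first count was 4. These shares of the members are near those of all genes.

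The slides divided the exoNOD arrays. Against the mean of the controls, exoNOD replicate 1, on their slide, had a median difference of 0.05 over the members, and the mean of exoNOD replicates 2 and 3, on slide 2, had 0.35. The medians over all genes were 0.02 and 0.04. The slide 2 difference was the higher for 21 of 25 members, as for 55.7% of all genes. On slide 1 exoNOD replicate 1 lay within the range of the controls for 16 members (64%), against 51.9% of all genes. It lay above that range for 6 members and below it for 3. Slide 2 has no control, so within pairs 2 and 3 slide and treatment cannot be told apart. The calls with the replicate block rest in part on these pairs. Between exoNOD replicate 1 and the other exoNOD replicates, slide and preparation cannot be told apart. With slide as a block the treatment difference rests on exoNOD replicate 1 alone against the 3 controls, and limma called 0 members (0 also at an unadjusted p below 0.05), which says little with 1 array in a group.

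**Figure D4:**
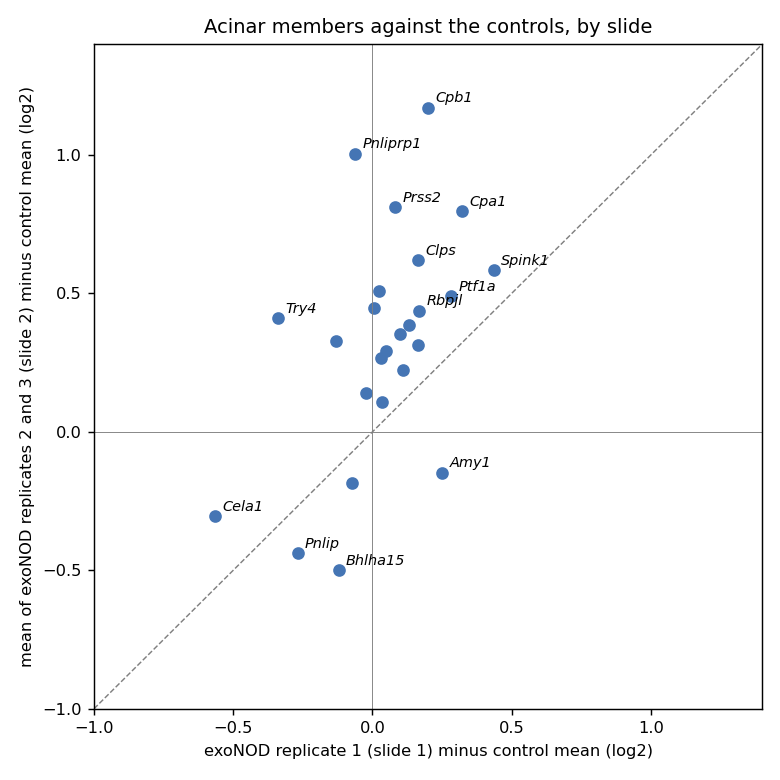
Each point is 1 of the 25 members: the difference from the control mean of exoNOD replicate 1, on slide 1 (horizontal axis, log2), and of the mean of exoNOD replicates 2 and 3, on slide 2 (vertical axis, log2); the dashed line marks equal differences. Of the points, 21 lie above the line, with Cpb1 and Pnliprp1 farthest from it.

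As a measure of exocrine carry-over, the mean level of the 25 members was −3.53, −3.11 and −3.42 in control replicates 1, 2 and 3 and −3.31, −2.78 and −3.28 in exoNOD replicates 1, 2 and 3. Replicate 2 was the highest in both groups, and in control a few members carried most of this. Try4, Try5, Prss2 and Pnliprp1 were left out after their values were seen. The means of the other 21 were −3.070, −3.004 and −3.057 in control and −2.98, −2.62 and −2.93 in exoNOD cells. The control arrays then lay close together, while exoNOD replicate 2 stayed above exoNOD replicates 1 and 3. The summed signal lay between 927% and 1050% of the 75th percentile signal in control and between 823% and 1018% in exoNOD cells. Bhlha15 alone supplied between 44.4% and 61.0% of each sum, so that gene weighs heavily in the sum. Without Bhlha15 the sums were 409%, 423% and 390% in control replicates 1, 2 and 3. In exoNOD replicates 1, 2 and 3 they were 415%, 566% and 450%. Replicate 2 was the highest in both groups, by little in control, but these sums still held Try4, Try5, Prss2 and Pnliprp1. With those 4 left out and Bhlha15 kept, the control sums were 1042%, 943% and 915%, highest on replicate 1. The exoNOD sums were then 934%, 980% and 810%, highest on replicate 2.

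Of 20 further acinar genes 15 were tested, and 0 passed in either direction, with or without the block. Among the 15, 11 were higher and 4 lower, with a median of 0.19. Of all 25790 genes tested 14287 were higher, with a median of 0.04. Those with the lowest p were Rap1gap (−0.28, adjusted p = 0.231), Tmed6 (0.26, 0.345), Cela3a (0.42, 0.36) and the kallikrein gene Klk1 (0.36, 0.482), above background on 2 of 3 control arrays. The pancreatic amylase gene Amy2a5 had −3.61, −3.79 and −4.68 in control and −3.92, −3.02 and −4.29 in exoNOD cells, lowest on replicate 3 in both groups like Amy1.

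Among 16 tested partners and other regulators of the acinar programme, 0 passed without the block, and with it 1 rose and 1 fell, against 6.93% and 1.83% of all genes. Notch1, a receptor that holds back acinar differentiation in the developing pancreas, rose with the block (0.88, adjusted p = 0.00114, 0.22 without). The orphan nuclear receptor gene Nr0b2, a partner of Nr5a2, had levels between −6.21 and −5.99 in control and between −5.58 and −5.20 in exoNOD cells (0.71, adjusted p = 0.212, 0.0991 with the block). The E-protein gene Tcf3, whose product pairs with Ptf1a, differed by −0.28 (0.285) and Notch2 by 0.41 (0.331). The list median was −0.04.

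Of 7 tested injury and metaplasia genes 0 passed without the block, and 3 rose with it, against 6.93% of all genes. These were the acinar stress genes Reg3b (3.12, adjusted p = 0.109, 0.00403 with the block) and Reg1 (1.75, 0.248 and 0.00234) and the intermediate filament gene Vim (0.73, 0.12 and 0.00264); Onecut2 differed by −0.29 (0.32). Reg3b was above background on 1 of 3 control arrays and all exoNOD arrays, so it entered the test through the exoNOD group, and its size of change rests on control values near background. Reg1 had −5.73, −3.34 and −4.30 in control and −3.30, −1.55 and −3.26 in exoNOD cells, highest on replicate 2 in both groups, as were the trypsinogens Prss2, Try4 and Try5.

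Of 16 tested duct cell genes 0 passed without and 3 rose with the block (6.93% of all genes), namely the chloride channel gene Cftr (0.82, adjusted p = 0.233 and 0.000916), Car2 (1.95, 0.283 and 0.0141) and Spp1 (1.56, 0.301 and 0.00291); Muc1 differed by 0.40 (0.285). Car2, too, was above background on 1 of 3 control arrays and all exoNOD arrays, which limits its value in the same way. Spp1 had −1.62, −1.89 and 0.86 in control and 0.04, 0.39 and 1.60 in exoNOD cells, so it was highest on replicate 3, where Amy1 and Cela1 were lowest. The mean level of the duct list lay between −0.72 and −0.27 in control and between −0.32 and −0.10 in exoNOD cells.

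Markers of the other cells in an islet preparation also differed between the groups, and their part in the acinar values was not tested. Of 13 beta cell markers 0 passed without the block, and 8 fell with it, against 1.83% of all genes, among them Mafa (−0.30, adjusted p = 0.0430), Nkx6-1 (−0.42, 0.0136), Ucn3 (−0.73, 0.00192) and Slc30a8 (−0.45, 0.0113). Their summed signal lay between 111767% and 118648% of the 75th percentile in control and between 108451% and 110562% in exoNOD cells. The 10 alpha, delta and PP cell markers had a median of −0.23, and 1 fell with the block, against 1.83% of all genes (Pyy, −0.40, 0.0444; Ppy −0.35, Ttr −0.29 and Rbp4 −0.31 did not pass).

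The counts that follow are with the block, under which 6.93% of all genes rose and 1.83% fell. Of 11 fibroblast and stellate cell markers 3 rose, among them Pdgfra (1.23, adjusted p = 0.0130) and Thy1 (0.45, 0.0315), while Col1a1 (0.30) and Pdgfrb (0.33) did not pass. Of 8 endothelial markers 1 rose (Plvap, 0.43, 0.0211) and 3 fell (Robo4, −0.81, 0.00561; Cdh5, −0.80, 0.0347; Emcn, −0.98, 0.0396). Of 8 macrophage and dendritic cell markers 1 rose (Mrc1, 2.20, 0.00172) and 2 fell (Itgam, −0.50, 0.00889; Adgre1, −0.87, 0.0157), and Itgax did not pass (0.18). Mrc1 was above background on 1 of 3 control arrays and all exoNOD arrays. Of 7 T lymphocyte markers 2 rose, among them Cd5 (0.62, 0.0488), while Il2rb (0.50), Cd2 (0.43) and Cd4 (0.32) did not pass. None of these lists had a member past the threshold without the block.

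**Figure D5:**
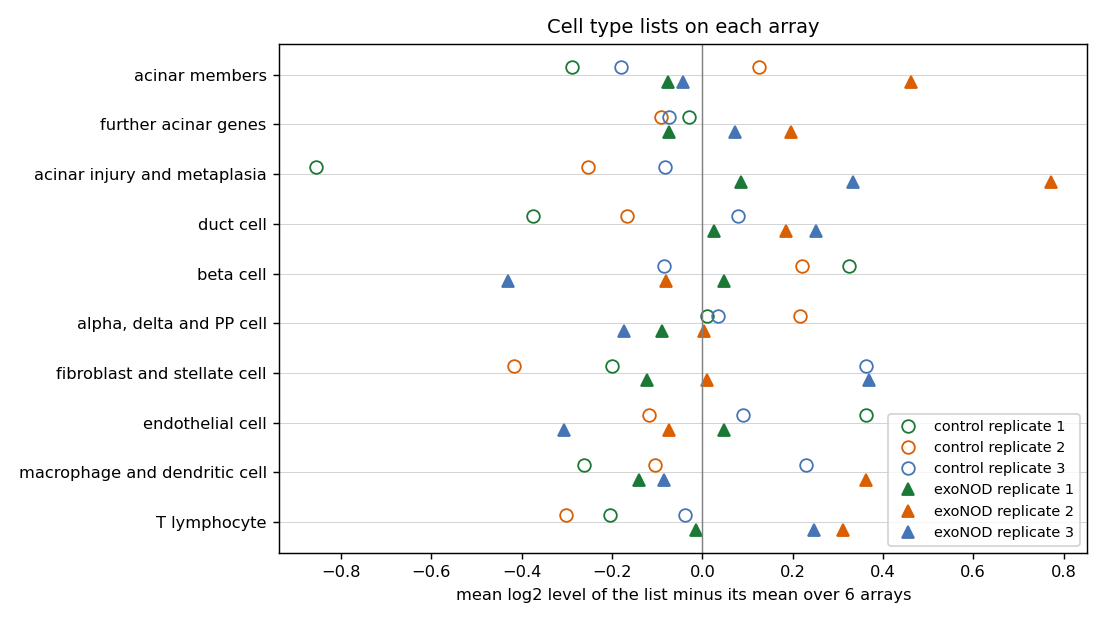
Mean log2 level of each list on each array, minus the mean of that list over the 6 arrays (horizontal axis); open circles are control, triangles exoNOD, colours replicate numbers. The acinar members are highest on replicate 2 of each group, the fibroblast list on replicate 3, and the beta cell list is lowest on exoNOD replicate 3.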

How the data were processed

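Cy3-labelled RNA from 6 islet cell cultures was measured on Agilent mouse arrays of 1 colour. Per the file headers, the authors extracted spot intensities with Agilent Feature Extraction 11.0.1.1, whose processed signal has the background removed and is not scaled between arrays. Deposited log2 values of the authors cover 31766 of 39429 probes; their method is not given in the sources used here, every array has the median 7.92, and they differ from quantile-normalized signals by a median of 0.0019 to 0.0032.

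From the intensities, log2 values were formed and each array's 75th percentile subtracted. Replicate spots were averaged after leaving out those marked as outliers (0.381% to 0.618% per array; none on a member's probe). A probe stayed in if every array of either group showed it well above background, and each gene was represented by its probe of highest mean signal. RefSeq accessions gave 27234 probes a symbol. Tests were two-sided and used limma (version 3.58.1, under R 4.3.3; lmFit, then eBayes with the trend option), checked on simulated data. Normexp was run on median signals, since mean signals are not used here.

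The main fit has no block. The labels give 3 experiments, with their own islet and exosome preparations, but do not say that equal numbers share one. Deviations from the group mean correlated across genes, which are not independent replicates, at 0.366, 0.281 and 0.480 between arrays of equal number. Each exceeded 0.1, so equal numbers were taken as pairs. All members are named, and of each other list the 4 genes with the lowest p; Amy2a5, Ins2 and the other genes with levels per array were chosen after their values were seen. Members and lists were chosen with earlier results of these data known. Alternatives were the replicate or slide block, slide 1 alone, normexp, quantile or median scaling, other filters, array weights, other probes, the authors' values and leaving out arrays or pairs.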

Additional observations from a re-analysis of the deposited data

How the results depend on the processing

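Without a block 27 genes and 0 members passed. The replicate block gave 2259 genes (1787 higher) and 2 members. The count of genes was 0 with slide as a block (929 at an unadjusted p under 0.05 in limma), 0 on slide 1 alone (1143), 162 with normexp (121 higher), 13 with scaling by the median, 0 with no filter on dim probes (4638), 309 with array weights, and, with the replicate block, 1198 (822 higher) after quantile normalization and 1231 (849 higher) in the authors' values. Leaving out 1 array gave 0 to 1273 genes and 0 to 2 members. The highest count came when exoNOD replicate 1 was dropped; dropping control 3 gave 76 and dropping exoNOD 3 gave 2, and dropping control 1, control 2 or exoNOD 2 gave 0 (2556, 2422 and 3050 at an unadjusted p under 0.05). With the replicate block, dropping pair 1, 2 or 3 gave 4170, 439 or 1737 genes and 5, 0 or 2 members. The members' median change, 0.26, was 0.048 with slide as a block and on slide 1 alone, and 0.72 with normexp, where that of all genes was 0.35; quantile normalization and the authors' values both gave 0.12, and it was 0.099 to 0.35 when 1 array was left out, lowest without exoNOD replicate 2. The cause was not tested.

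No member that changed sign had passed the threshold. With slide as a block and on slide 1 alone Amy1 was 0.25, Pnliprp1 −0.062, Prss1 −0.024, Try4 −0.34 and Try5 −0.13. With normexp Amy1 was 0.60, Cela1 0.22, Gp2 0.54 and Pnlip 0.47. With and without the replicate block, quantile normalization gave Prss1 −0.092, Rnase1 −0.076 and Try4 −0.032, and the authors' values gave −0.090, −0.076 and −0.030. Scaling by the median gave Prss1 −0.055 and Rnase1 −0.059. Array weights gave Prss1 −0.0085, Try4 −0.13 and Try5 −0.12. The other probes gave Gp2 0.30, above background on all 6 arrays, and Nr5a2 −0.13, above background on 0 arrays. Leaving out arrays, Amy1 ranged from −0.21 to 0.22, Gp2 from −0.28 to 0.023, Prss1 from −0.10 to 0.22, Try4 from −0.59 to 1.13 and Try5 from −0.34 to 1.02. Leaving out pairs with the block turned Amy1 (0.026 without pair 3), Cel (−0.016 without pair 2), Prss1 (−0.084 without pair 2), Try4 (−0.34 without pair 1) and Try5 (−0.18 without pair 1). Beside the calls of Cpa1 and Bhlha15, the block changed no other member's call. Ptf1a and Pnliprp1 lie close to background, which limits their precision.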
